A study of Bos taurus with 47 samples.

Results

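Grown heifer muscle was described here from the 15 Longissimus thoracis libraries whose timepoint label is slaughter, out of 47 libraries in the series. They were chosen by that label alone, with no use of the counts. The heifers are the F1 generation of crossbred Angus dams (F0) assigned to 2 rates of weight gain over the first 84 days of gestation, a low gain of 0.28 kg per day (LG) or a moderate gain of 0.79 kg per day (MG). After that window the dams were kept as 1 group, and the F1 heifers were managed alike whatever the dam's treatment, so the groups differ by label only in the dam's early gain. The treatment label puts 8 libraries in LG and 7 in MG, while the protocol text states 7 and 8. The treatment labels were followed, and all 15 library numbers recur among the F2 fetal libraries with the same treatment label. The sources used here do not give the heifers' age or pregnancy status at slaughter.

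The Longissimus runs along the back and supplies the loin cuts of beef. Muscle fibres are formed almost entirely before birth, and growth after birth proceeds mainly by enlargement of existing fibres, with fat and connective tissue laid down between them. Nutrition of the dam in early gestation coincides with the formation of the earliest fibres, and the comparison asks whether it left a trace in the muscle of daughters grown under common management. The files list genes by Ensembl identifier and do not pair them with names, and 0 of 27607 identifiers matched the reference gene table. Genes are therefore described by level, spread and age pattern, a few are given by identifier with no function, and the labelled tissue could not be checked against marker genes.

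Total counts ran from 14972276 to 32547565 per library, with MG 47 the deepest and LG 36 the shallowest. Levels are given in CPM, the count divided by the library's total and scaled to a common depth. In these units, 3 counts were 0.0922 CPM in the deepest library and 0.200 CPM in the shallowest. Of the listed genes 20796 had at least 1 count in these libraries, and 12577 had enough counts to be tested. CPM values below use library sizes scaled by TMM, a correction for differences in RNA composition, unless stated otherwise. They are not divided by transcript length, so a larger CPM of 1 gene than of another is not a larger number of molecules.

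A small set of genes supplied most of the messenger RNA reads of grown muscle. The 117 tested genes above 1000 CPM held 58.3% of all counts, and the 979 genes between 100 and 1000 CPM held a further 22.2%. At the other end, the 3349 genes of 1 to 5 CPM held 0.891% and the 917 under 1 CPM held 0.0691%. The gene with the most counts, ENSBTAG00000046332, took 5.76% of a library's counts on average and ranged from 4.16% to 7.45%. It averaged 58530 ± 11261 CPM in LG (SD, n = 8) and 57395 ± 11441 CPM in MG (SD, n = 7). The next, ENSBTAG00000018204, took 3.62%, from 2.23% to 4.83%, and averaged 34930 ± 8643 CPM in LG and 37501 ± 6966 CPM in MG. Both were present at high level in all 15 libraries, and the groups overlapped over most of their range.

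Most genes had similar levels from library to library. The SD of log2 CPM between libraries within the groups had a median of 0.32 over the 12577 genes. It was smallest for genes of 25 to 100 CPM, with a median of 0.21, and widest for those under 1 CPM, with 0.62. An SD over 1 log2 unit was found in 294 genes and over 2 in 30. Without LG 14, a library described below, these were 250 and 17. Leaving out any other library gave 281 to 340 and 24 to 33. Genes above 1000 CPM had a median SD of 0.27.

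**Figure D1:**
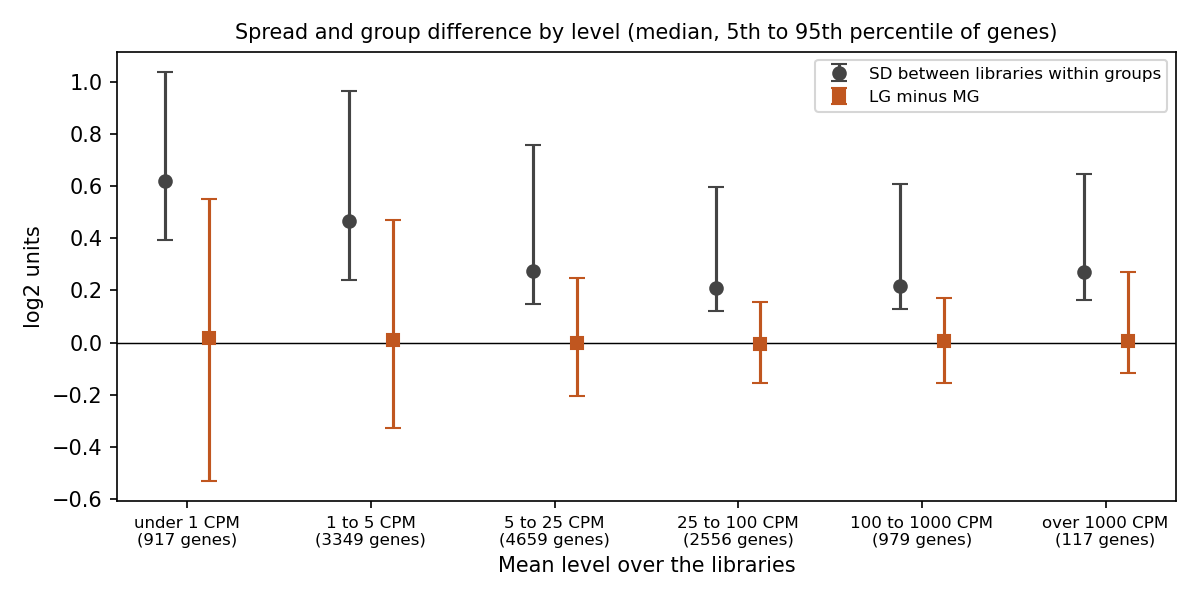
Spread between libraries within groups (circles) and LG-minus-MG difference (squares) of the tested genes in 6 classes of mean level, in log2 units on the y axis. Markers give the median and bars the 5th to 95th percentile over genes. The difference is centred near 0 in every class, from -0.0034 to 0.017, and its range narrows from the lowest class to the genes of 25 to 100 CPM.

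Some genes were present in a number of libraries and close to absent in the others. A gap of over 4-fold between neighbouring libraries, with at least 3 libraries on each side and a mean of at least 1 CPM, split 9 genes. ENSBTAG00000048950 had 0 counts in 5 libraries (LG 07, LG 29, LG 36, MG 20 and MG 45) and between 2.05 and 52.0 CPM in the other 10. ENSBTAG00000016063 lay between 14.2 and 23.4 CPM in 7 libraries, 3 LG and 4 MG, and at or below 0.186 CPM, which is 5 counts or fewer, in the other 8. High and low libraries occurred in both groups for these 2 genes. Over the 9 genes, the high side held 2 to 8 LG and 2 to 6 MG libraries. The gene with 8 LG libraries on the high side had 3 MG libraries there, so its 4 low libraries were all MG (log2 fold change 1.24). None of the 9 reached an unadjusted p under 0.05 for LG against MG with edgeR. These genes were picked out after their values were seen.

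A single library, LG 14, stood apart from the rest of the grown muscle in a block of genes. In 150 genes LG 14 lay over 2-fold above every other library, and in 61 of them over 4-fold. The next library by this count, LG 41, had 15 such genes, and the median library had 3. Summed over the 150 genes and scaled to total counts alone, LG 14 had 7964 CPM, while the other 14 libraries had 649 to 1428 CPM. The median gene of the block was at 14.2 CPM in LG 14 and at 1.61 CPM on average in the others. MG 20 was the second highest library in 35 of the 150 genes, more often than any other, and 19 was the next count. The newborn library that carries the number 14 did not share the pattern: its sum over these genes was 1120 CPM, within the 836 to 1888 CPM of all 16 newborn libraries, and it lay over 2-fold above all other newborns in 1 of the 150 genes. In the F2 fetal muscle, the sum over these genes was higher than in newborn and other grown muscle, from 3260 to 5643 CPM, with 4612 CPM in the library numbered 14. The fetal mean was over 2-fold above that of the other 14 grown libraries in 76 of the 150 genes (50.7%), beside 45.8% of all tested genes. The newborn mean was over 2-fold above it in 33 (22%), beside 10.2% of all tested genes. Other stages had such libraries as well, with 118 genes for MG 17 at birth and 1645 for MG 20 among the fetuses. The block was defined from these values, so they describe the library and test nothing. What gave rise to it was not tested, since no marker gene could be identified.

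**Figure D2:**
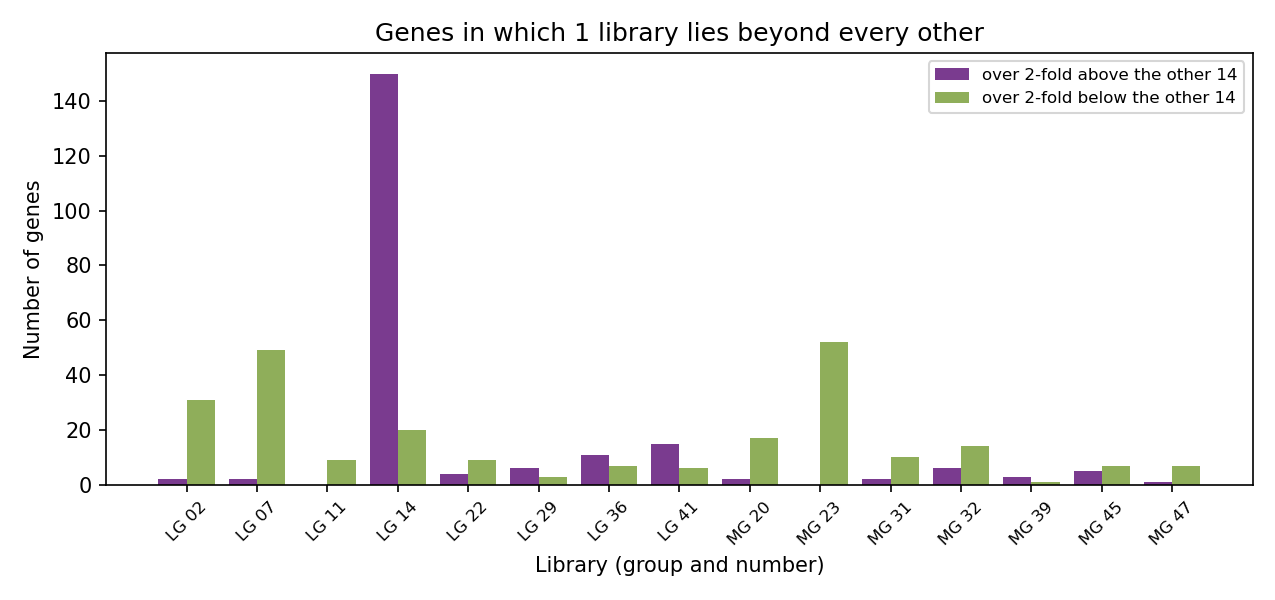
Number of genes (y axis) in which each of the 15 libraries (x axis) lies over 2-fold above, or over 2-fold below, the other 14. LG 14 has 150 genes above the rest, and MG 23 has the most below, 52, followed by LG 07 with 49.

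In a principal component analysis of log2 CPM, 25.5% of the variance lay on the first component and 14.4% on the second. On the first, LG 07 and LG 14 lay at opposite ends, with scores of -50.6 and 43.0, so the extremes belonged to the same group. On the second, LG 14 had -47.2 and MG 23 had 41.01. Mean scores of LG and MG differed by 3.38 on the first component (exact permutation p = 0.811, two-sided) and by -7.28 on the second (exact permutation p = 0.511). Depth, genes detected, the number of genes holding 50% of the counts and the share of the 10 most abundant genes also gave no difference beyond the spread of the libraries. Genes detected were 16606 ± 311 in LG (SD, n = 8) and 16621 ± 361 in MG (SD, n = 7; exact permutation p = 0.928). Over the 6 measures compared, every p adjusted by Benjamini-Hochberg was 0.954.

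**Figure D3:**
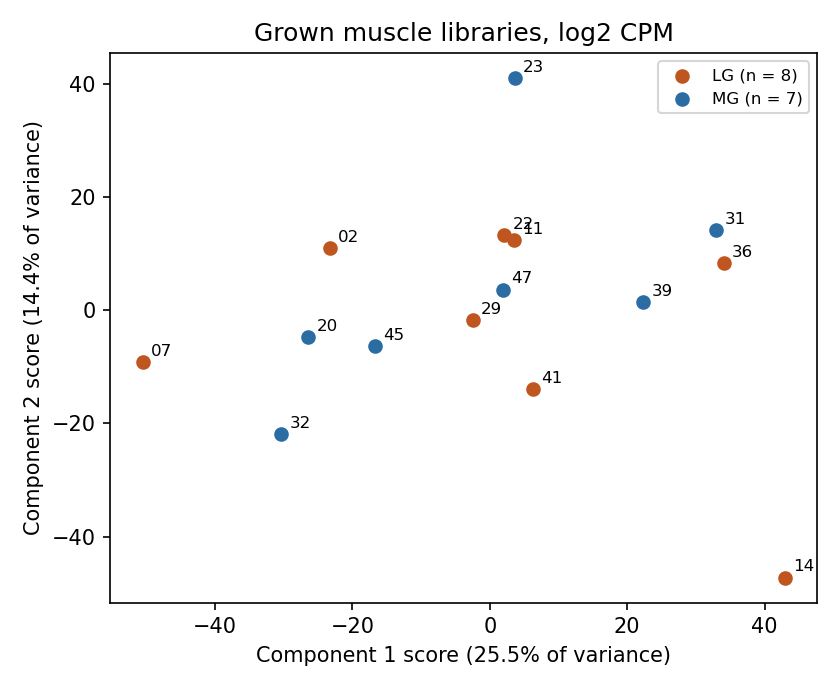
Scores of the 15 grown muscle libraries on the first 2 components of log2 CPM (percent of variance on each axis), labelled by number and coloured by group. LG and MG points are mixed, and LG 14 lies at the lower right, away from the rest.

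The comparison of LG with MG asked which genes of grown muscle differ by the dam's early gain. No gene passed edgeR's quasi-likelihood test at an adjusted p under 0.05 (0 of 12577, 0% called), nor did any with DESeq2 or limma voom. Without adjustment, 230 genes (1.83%) were at p under 0.05 with edgeR, 253 with DESeq2, 194 with limma voom and 365 with limma voom and sample weights. With no difference in any gene, evenly spread p-values would put a share of 0.05 of genes under this cut-off, more than the 1.83% found. Of the 230, 142 were higher in LG (1.13%) and 88 lower (0.700%). That balance rested on LG 14: without it and over the same genes, 220 had an unadjusted p under 0.05, 97 higher and 123 lower, again with 0 past the threshold. Without LG 07 the 230 became 377, with 0 past the threshold. No label says that each library is a separate animal, so the spread behind the p-values is that between libraries. Its technical share was not measured. Pairs of libraries of 1 group differed by a chi-square of 27.0 or more per degree of freedom, so none was treated as a repeat of another.

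Large fitted differences leaned towards LG, and most of that lean came from the same library. A difference of over 2-fold was fitted for 84 genes higher in LG (0.668%) and 7 lower (0.0557%). The LG 14 block held 52 of the 84, or 61.9%. Without LG 14, over the same genes, 29 were over 2-fold higher and 16 over 2-fold lower, and 26 of the 29 were among the 84. The median difference of the 150 block genes went from 0.74 on the log2 scale with LG 14 to -0.11 without it. In the other 12427 genes the median was -0.0012 with LG 14 and -0.0038 without it.

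**Figure D4:**
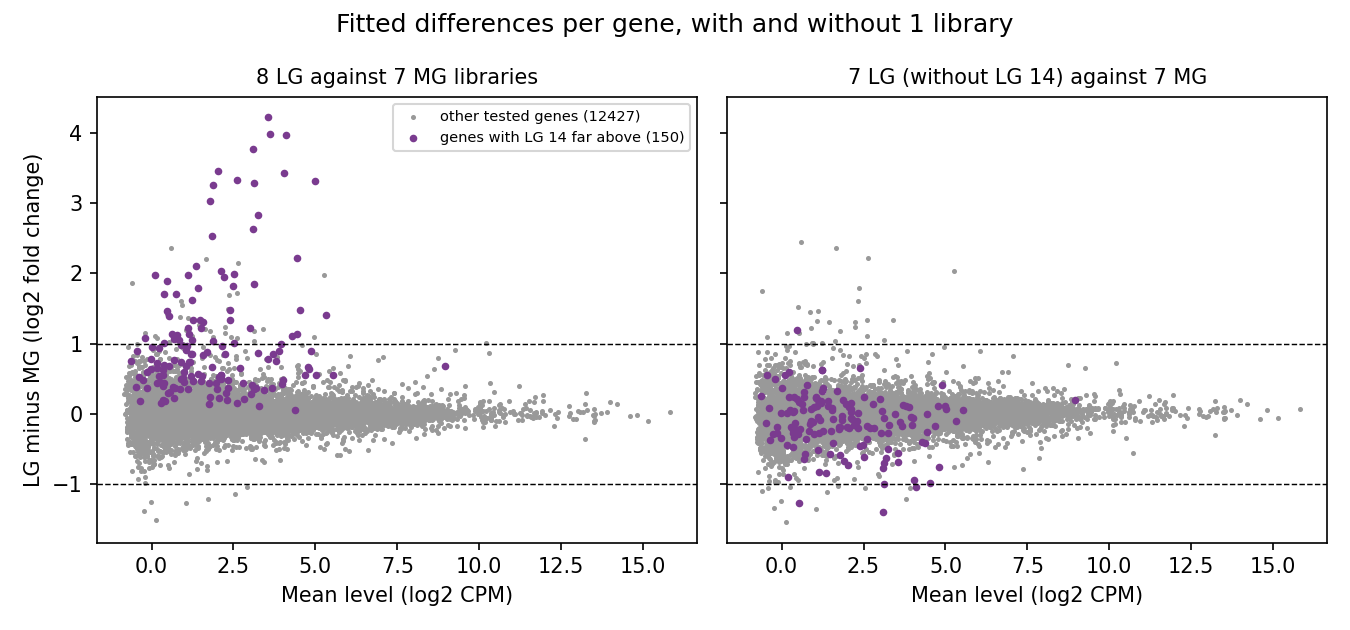
LG-minus-MG log2 fold change of each tested gene (y axis) against its mean level in log2 CPM over the 15 libraries (x axis), fitted with all libraries (left) and without LG 14 (right). The 150 genes in which LG 14 lies far above the others are coloured, and dashed lines mark 2-fold. The coloured genes lie above 0 on the left and spread around 0 on the right.

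The range of fitted differences was wider at low levels. Between the 5th and 95th percentile of genes, the fitted log2 fold change ran from -0.53 to 0.55 under 1 CPM, from -0.33 to 0.47 at 1 to 5 CPM, from -0.21 to 0.25 at 5 to 25 CPM and from -0.16 to 0.16 at 25 to 100 CPM. Outside these percentiles, 27 genes of 5 to 25 CPM were fitted over 2-fold higher in LG and 2 lower, as were 4 higher at 25 to 100 CPM and 1 higher above 1000 CPM. The 95% interval of the ratio of LG to MG (limma voom) lay within 1.5-fold for 89.4% of genes of 25 to 100 CPM, 78.9% of those of 5 to 25 CPM, 35.3% of those of 1 to 5 CPM and 1.96% of those under 1 CPM. Within 2-fold, the shares were 97.9%, 96.3%, 82.4% and 50.5%. For most genes under 5 CPM, the interval therefore did not exclude a difference of 1.5-fold.

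None of the genes nearest to the threshold passed it. ENSBTAG00000007666 had 1.61, 2.26 and 3.66 CPM as the lowest, median and highest of the 8 LG libraries, and 0.597, 1.09 and 1.84 CPM in the 7 MG libraries. The ranges overlapped, although 8 of 8 LG libraries were above the MG median and 6 of them above the highest MG library. The fitted log2 ratio was 0.99 (SE 0.25, edgeR adjusted p = 1.00). ENSBTAG00000017524 had 5.38, 7.88 and 13.5 CPM in LG and 1.58, 3.17 and 6.90 CPM in MG, and the fitted log2 ratio was 1.07 (SE 0.27; adjusted p = 1.00 with edgeR). Its highest value was that of LG 02, and 6 of 7 MG libraries lay below the lowest LG library. In the other direction, ENSBTAG00000004769 had 0.315, 0.518 and 1.09 CPM in LG and 0.722, 1.39 and 1.81 CPM in MG (log2 fold change -1.26, SE 0.30, edgeR adjusted p = 1.00). LG 29 alone overlapped with the MG libraries. Its total over the 15 libraries was only 267 counts.

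In 1 of 12577 genes (0.00795%) the LG and MG libraries did not overlap. ENSBTAG00000006901 had 0.972, 1.45 and 1.67 CPM as the lowest, median and highest LG value and 1.68, 1.83 and 2.44 CPM in MG. The gap between the groups was narrow, the log2 fold change was -0.53 (SE 0.18), and it did not pass (edgeR adjusted p = 1.00). Leaving out each library in turn, its log2 fold change ran from -0.59 to -0.47.

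**Figure D5:**
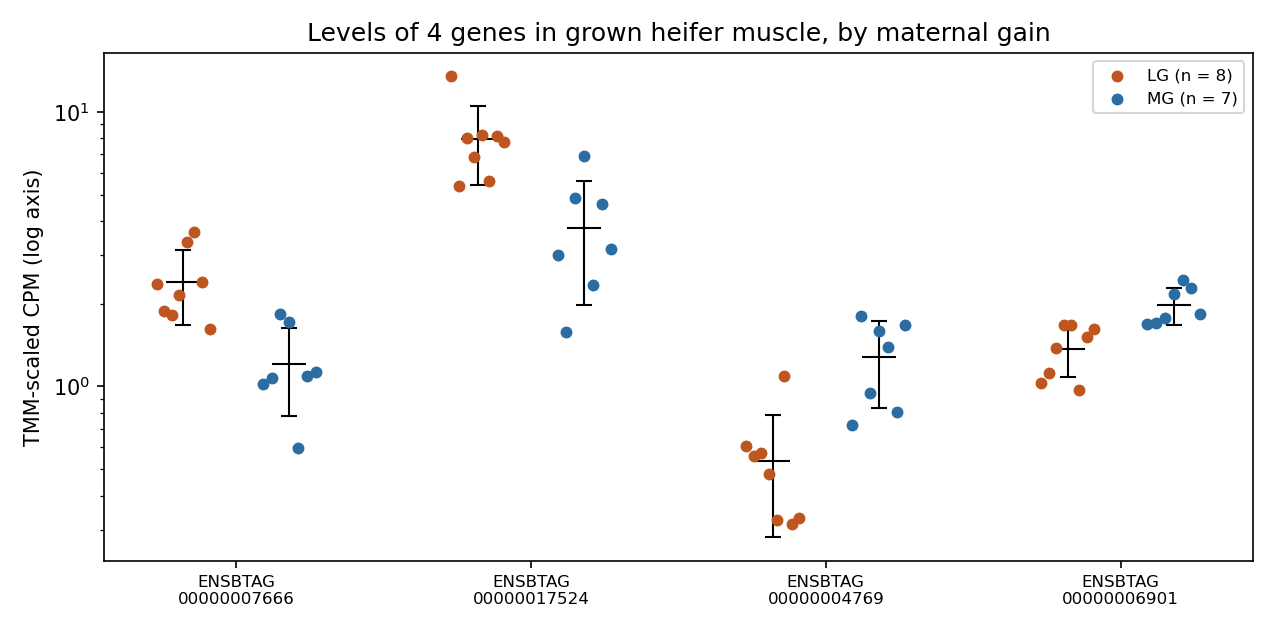
TMM-scaled CPM on a log axis of 4 genes in each LG (n = 8) and MG (n = 7) library, with the mean and SD of each group as black bars. The 2 genes on the left are those with the smallest p among genes higher in LG, the third that among genes lower in LG, and the fourth is the gene whose groups do not overlap; none passed the test.

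Genes were also grouped by what happened between birth and slaughter, a comparison that averages over LG and MG. Against the 16 newborn libraries, 9390 of 13369 genes changed (70.2%), 4944 rising and 4446 falling with edgeR at an adjusted p under 0.05. Stage and collection or library batch cannot be told apart here, as each stage was deposited as its own table. As an example of a rise, ENSBTAG00000004038 had 0.897, 1.66 and 2.73 CPM as the lowest, median and highest newborn value and 19.3, 30.6 and 44.6 CPM in grown muscle (log2 fold change 4.26, SE 0.15, edgeR adjusted p = 2.93e-21). ENSBTAG00000053735 fell from 61.9, 87.5 and 115 CPM to 5.12, 7.18 and 12.3 CPM (log2 fold change -3.57, SE 0.10, edgeR adjusted p = 1.26e-22). Neither gene's newborn and grown ranges overlapped.

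Of 5 classes by age pattern, the genes that had risen over 2-fold since birth had the highest median SD between libraries. These 1771 genes held 19.6% of the counts of grown muscle and had a median SD of 0.48 log2 units, against 0.28 for the 3116 that had risen less, 0.24 for the 3034 that had fallen less than 2-fold, 0.38 for the 989 that had fallen over 2-fold and 0.38 for the 3667 that did not pass in either direction; the classes were not matched on level. They were 14.1% of the tested genes and held 40 of the 84 genes fitted over 2-fold higher in LG (47.6%) and 50 of the 150 block genes of LG 14. The over 2-fold higher genes were 2.26% of this class, beside 0.668% of all genes. At an unadjusted p under 0.05 they gave 42 higher and 9 lower in LG, or 2.88% of them beside 1.83% of all genes. Without LG 14 these became 22 and 13, or 1.98% beside 1.75% of all genes, with 12 genes over 2-fold higher and 4 lower. Genes that had fallen over 2-fold gave 20 higher and 9 lower (2.93%), and without LG 14 they gave 13 and 25 (3.84%). Each of these shares at an unadjusted p under 0.05 is below 0.05, the share that evenly spread p-values would give. The median LG-minus-MG difference was 0.022 in the first group and -0.011 in the last, beside 0.0004 over all genes. The groups were formed after earlier results of these data were known, and the shares are given as a description. LG 14 was among the grown libraries that set these classes, and they were not formed again without it. A gene far higher in LG 14 could thereby enter both the risen class and the genes higher in LG. Their overlap may be partly built in.

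Whether the LG-minus-MG difference of grown muscle departed from that of newborn muscle was tested directly in 1 model of both stages. No gene passed with edgeR (0 of 13369, 0% called), nor with limma voom, and 439 had an unadjusted p under 0.05 (3.28%). The share of 3.28% was again below 0.05. In 350 of the 439 the difference was higher at slaughter and in 89 lower. The genes tested here include some near the floor in grown muscle. Of 1329 that had fallen over 2-fold since birth, 989 had enough counts for the test within grown muscle. ENSBTAG00000049852, with the second smallest p, had a difference of 3.48 on the log2 scale but only 0 to 5 counts per grown library. How many of the 350 were near the floor is not given here. Without LG 14 at slaughter, 397 genes had an unadjusted p under 0.05 with edgeR, and their split by direction is not given here. Newborn MG 17, over 2-fold above all other newborns in 118 genes, was not left out. Whether the split rests on single libraries was not tested. ENSBTAG00000005816, with the smallest p, averaged 13.1 ± 3.16 CPM in LG and 9.91 ± 1.00 CPM in MG grown muscle (SD, n = 8 and 7), and 3.98 ± 0.954 and 6.37 ± 2.36 CPM in newborn LG and MG muscle (SD, n = 8 each). LG-minus-MG differences were 0.40 (SE 0.18) and -0.68 (SE 0.18) on the log2 scale, and their difference of 1.08 (SE 0.25) did not pass (edgeR adjusted p = 1.00). ENSBTAG00000007666, described above, had 0.99 (SE 0.23) in grown and -0.03 (SE 0.20) in newborn muscle in this model, and this difference did not pass either (edgeR adjusted p = 1.00).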

How the data were processed

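The authors deposited whole-number counts per gene identifier in 1 table per stage, from non-directional polyA libraries read as 150 bp pairs, per the labels' protocols. The submitters' processing notes name STAR 2.7.3a as well as edgeR 3.24.3, FastQC 0.11.8 and MultiQC 1.9, with no role. The sources used here do not name the genome build, gene models or counter, and without strand, overlapping genes cannot be told apart. The slaughter header has no identifier cell, and column names were therefore read as starting at the first values.

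The main test was the robust quasi-likelihood test of edgeR 4.0.16 (R 4.3.3) after filterByExpr and TMM scaling, with Benjamini-Hochberg adjustment and a threshold of 0.05. The SE is the log2 fold change divided by the square root of F. Log2 CPM used a prior count of 2. Intervals came from limma 3.58.1 voom without sample weights. Alternatives used DESeq2 1.42.0 on the same genes, limma, sva 3.50.0, other scalings and filters, and leaving out each grown library. Library measures were compared with scipy 1.17.1 by exact permutation over 6435 arrangements. The edgeR test was run on simulated data for LG against MG, slaughter against birth and the difference between stages, with outcomes not given here. Pairs of libraries of 1 group had a chi-square of 27.0 or more per degree of freedom, so none was merged.

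The comparisons, lists and identifiers were chosen with earlier results of these data known. As 0 identifiers could be paired with a symbol, the naming rule fell back to at most 2 identifiers per direction with the smallest p, plus the gene whose groups do not overlap, and the gene lists and cell type markers were not run. Some genes picked by this rule are not described above. Among them are the second gene lower in LG, ENSBTAG00000001112 (log2 fold change -0.68), and those whose difference was lower at slaughter. The genes with the most counts and the widest spread, and the LG 14 block, were added after seeing the data.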

Additional observations from a re-analysis of the deposited data

Results flagged for a closer look

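In 42 groups of 7 or 8 values, a single library far from the others of its group was found 7 times. The rule flags about 1 in 20 groups by chance where values are normally distributed. Counts and CPM need not be, and some groups were chosen for their wide spread. The 7 are therefore no measure of an excess over chance. MG 47 had 32547565 counts, above the 21533995 of the next MG library. LG 14 had a second component score of -47.2, beyond the -13.9 of the next LG library, and its 150 genes over 2-fold above every other library stood against 15 for the next. MG 23 had 52 genes over 2-fold below every other library, against 17 for the next MG library. LG 29 had 1.09 CPM of ENSBTAG00000004769, against 0.606 for the next LG library. LG 02 had 13.5 CPM of ENSBTAG00000017524, against 8.27. MG 47 had 49.9 CPM of ENSBTAG00000048950, against 21.2 for the next MG library.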

How the results depend on the processing

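The count of 0 genes past the threshold held under every alternative tried for LG against MG and for the difference between stages, except that a looser rule, p under 0.01 without adjustment and a log2 change beyond 0.5 either way, listed 21 genes. Genes at an unadjusted p under 0.05 numbered 365 with limma voom and sample weights and 768 with no filter. The 84 genes over 2-fold higher became 41 with DESeq2, 35 and 30 with limma voom with and without weights, 1989 with no filter, 29 with 1 CPM in every library of a group and 138 in the fit with birth libraries, and the 7 lower became 20 with limma voom and weights, 1373, 1 and 28 in the last 3; no filter and the joint fit test more genes of low count in grown muscle. Leaving out each library gave 0 past the threshold, 215 to 377 at an unadjusted p under 0.05 and 25 to 118 over 2-fold higher. Genes over 2-fold lower numbered 6 to 15, where 15 without LG 14, 14 without LG 36 and 11 without MG 39 also exceeded 1.5 times 7. The 16 lower without LG 14 given earlier were over the same genes as the main test. Differences of library measures then ran from -2147510 to 618293 in total counts, -96.7 to 73.2 in genes detected, -1.21 to 2.63 in genes holding 50% of the counts, -0.083 to 0.529 percentage points in the share of the 10 most abundant genes, -2.54 to 10.8 on the first and -11.6 to -1.02 on the second component, none past the threshold. The difference between stages had 439 genes at an unadjusted p under 0.05. Limma voom gave 283, and 1 CPM in every library of a group gave 271. Leaving out each grown library gave 369 to 507. No newborn library was left out here, nor for slaughter against birth. The 4 genes described for LG against MG kept their direction under every alternative that tested them. They were picked from these same values, so a kept direction is no further evidence of a difference. For ENSBTAG00000006901, whose groups do not overlap, leaving out a library could hardly reverse it.

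Newborn and grown libraries share 6 numbers, with correlations of deviations from the group means between 0.021 and 0.309, and 3 of the 6 grown libraries matched their own number best, so the numbers were not taken to pair the libraries. With the number as a replicate block, 309 genes had an unadjusted p under 0.05 for the difference between stages. Slaughter against birth gave 3183 rises with the block over these 12 libraries and 3213 without it. All 31 libraries gave 4944, and leaving out each grown library gave 4694 to 4910. Rises outnumbered falls with all libraries but not over these 12 (3613 and 3510 falls). LG and MG share no number, so no paired analysis was possible for them. Gene lists were not run; the median SD of 0.32 was the same with DESeq2 size factors.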
